A study of Glycine max with 4 samples.

Results

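Transcription start sites were mapped by nanoCAGE, which sequences the 5′ ends of capped RNA, in roots and shoots of soybean (Glycine max, cultivar Williams 82). The regions described here are those in which the most used start base lay 10 bp or more apart in the 2 tissues. They were chosen by the pooled tag values of each tissue: a root and a shoot tag cluster had to overlap on the same strand, both with a score of 10 TPM or more, and within the union of both spans the base with the highest root value and that with the highest shoot value (the lowest coordinate on ties) had to be at least 10 bp apart. Of 4151 overlapping pairs with both scores at the limit or above, on 20 sequences, 483 met the rule on distance, 11.6% of the pairs. Main start means this most used base throughout.

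Roots and shoots were collected separately from plants of 2 weeks grown under white light (300 µmol m-2 s-1) in a cycle of 12 h of light and 12 h of dark. Each tissue had 2 libraries, numbered 1 and 2, each made from 1 µg of total RNA, and no treatment or genetic change was compared. The labels do not say that the libraries came from separate plants, so differences between libraries of 1 tissue may be technical. Fewer cells of a type and less RNA per cell cannot be told apart in such samples, and with no gene names for these positions, the labelled tissues were not checked against marker genes.

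A promoter seldom starts all its transcripts at 1 base. RNA polymerase II begins at 1 sharp position where a TATA box or a strong initiator sets it, and over a spread of bases where these are weak or where several alternative core promoters lie close together. A change of start within a promoter alters the length of the 5′ leader of the transcript, and with it the short open reading frames or structures that the leader can carry. In plants such changes are known between organs and in response to light.

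Counts per library covered sequences 1 to 12 and part of sequence 13, with 655935 to 1000476 tags per library, and 322 of the 483 regions lay there. The regions held 4.42% and 4.51% of the tags of the root libraries and 6.0% and 5.70% of those of the shoot libraries. Of their 54083 and 37384 tags in shoot, 1 region on sequence 3 plus strand held 6976 and 5195. Another, on sequence 13 plus strand, held 4735 and 3784, so 2 regions weigh on the shoot shares. The other 161 regions had only 1 pooled value per tissue. The share of pairs that met the rule was 11.5% in the part with counts and 11.8% in the part without. By sequence it ran from 8.72% on sequence 4 to 16.9% on sequence 20. The plus strand held 240 of the regions and the minus strand 243.

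The displacement was mostly under 100 bp and went both ways. The distance between the main starts had a median of 41 bp (quartiles 24 and 69 bp) and reached 515 bp. It was 10 to 19 bp in 80 regions, 20 to 49 bp in 213, 50 to 99 bp in 130 and 100 bp or more in 60. The shoot main start lay downstream of the root main start in 225 regions and upstream in 258, so 46.6% were downstream. The median distance was 41 bp in both directions. These distances describe values that the rule used, and no test was made on them. In 310 regions (64.2%) the root and shoot clusters had the same start and end, so that the displacement lay inside a span common to both lists.

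**Figure D1:**
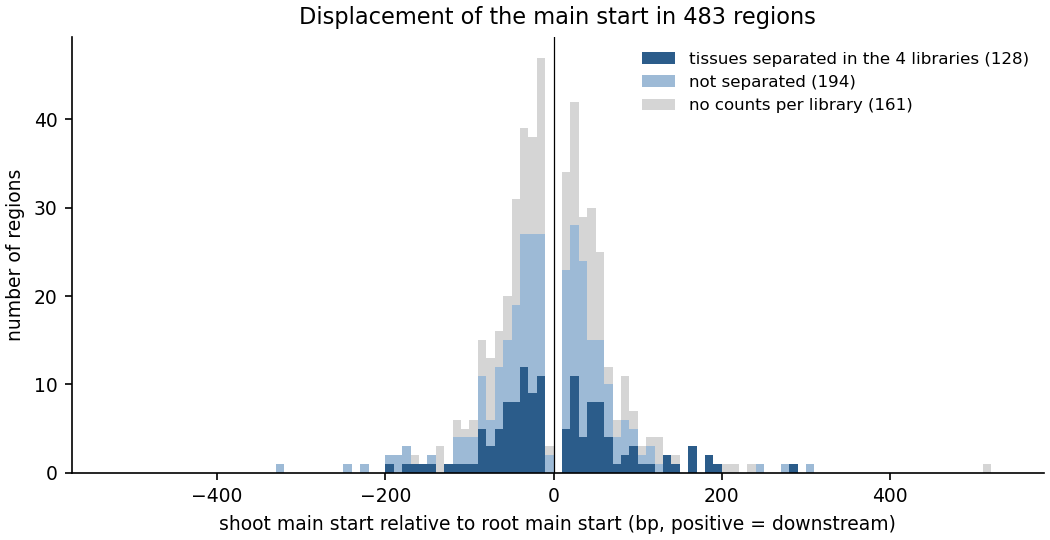
Number of regions (vertical axis) by the position of the shoot main start relative to the root main start in bp, positive where downstream, in bins of 10 bp. Dark bars are the 128 regions in which the 4 libraries separate the tissues, light blue bars the 194 in which they do not, and grey bars the 161 with no counts per library; both directions are filled and most regions lie within 100 bp of 0.

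In most regions the start that led in 1 tissue was still well used in the other. In root, the shoot main start had a median of 60.2% as many tags as the root main start (quartiles 37.0% and 78.9%). In shoot, the root main start had a median of 61.5% as many tags as the shoot main start (42.9% and 81.8%). In 225 of the 483 regions at least 1 tissue used the other start at 80% or more of its own. In 53 regions both tissues used the other start at under 50% of their own, and in 6 regions at under 20%. The other start had no tag in root in 4 regions and no tag in shoot in 1. In 47 regions the main start of at least 1 tissue was tied with another base. Taken over the pooled tags, 84 regions (17.4%) had a main start above the other start beyond an exact 95% Clopper-Pearson interval in both tissues. The main starts were picked as the highest bases of the same tags, so the interval favours them and this count is a description. The intervals allow for counting error alone. If the amplified reads carried no molecular identifier, which the labels do not say, they do not count separate molecules.

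The main start also differed between libraries of the same tissue, and this sets how much of the displacement exceeds the spread between libraries. Over all 2792 pairs of clusters with counts, the main starts of root library 1 and root library 2 lay 10 bp or more apart in 9.14% of pairs, and those of the shoot libraries in 10.1%. Between a root and a shoot library the share was 13.4% to 14.5% for the 4 combinations. Each combination of tissues was thus above both within-tissue values. Where every library had 100 tags or more, the shares were 6.45% and 5.02% within tissues and 9.50% to 10.04% between them. Where the lowest library had under 25 tags, they were 10.3% and 12.5% within and 13.5% to 15.9% between. One of these pairs had no tag in root library 2 and was left out of the comparisons with it.

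**Figure D2:**
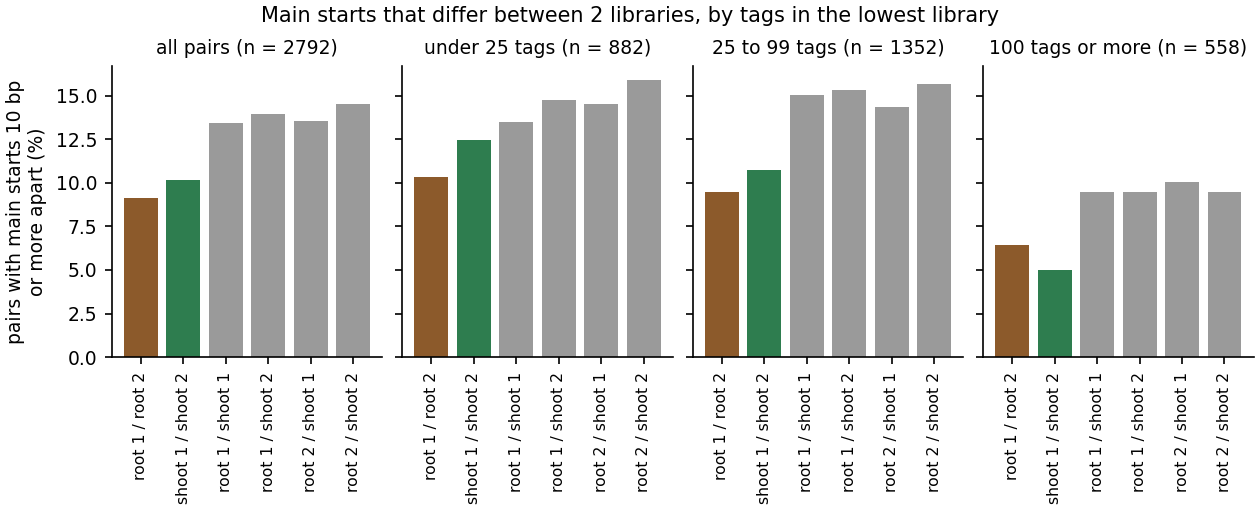
Share of pairs of clusters whose main starts lie 10 bp or more apart (vertical axis, %) for each combination of 2 libraries, over all 2792 pairs with counts and by the number of tags in the lowest of the 4 libraries. Brown and green bars compare libraries of the same tissue and grey bars a root with a shoot library; the grey bars are the tallest in every panel, and all bars are lower where each library holds 100 tags or more.

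Regions were called separated where the main starts lay 10 bp or more apart in all 4 root-shoot combinations and under 10 bp apart in both within-tissue combinations. Of the 322 regions with counts, 128 (39.8%) were separated, against 129 (4.62%) of all 2792 pairs, and since the pooled values of these libraries chose the regions, nothing is read from this contrast. With 2 libraries per tissue the smallest p that an exact permutation test can give is 0.333. In 97 of the 128, both root libraries had the same main start to the base, and so did both shoot libraries. Of the 194 regions that were not separated, the root libraries disagreed by 10 bp or more in 107, the shoot libraries in 129, and both in 45. The share separated was 53.2% of the 47 regions with 100 tags or more in every library, and 37.6% of the 178 with 25 to 99 tags and 37.1% of the 97 with fewer in the lowest library. Separated regions had a median distance of 46.5 bp, and the shoot main start was downstream in 58 of them (45.3%).

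The only libraries that a choice had not used were obtained by applying the rule to 1 library per tissue. Root library 1 and shoot library 1 had main starts 10 bp or more apart in 374 pairs. Of these, 174 (46.5%) were also 10 bp or more apart in the same direction in root library 2 and shoot library 2, and 51 (13.6%) were so in the opposite direction. Among the 2417 pairs under 10 bp apart in the choosing libraries, 180 (7.45%) were 10 bp or more apart, in either direction, in the libraries read. That group includes pairs too narrow for starts 10 bp apart, so the 2 groups are not alike in width. At the 2 bases chosen, the shoot base took a larger part of the tags of both bases in shoot library 2 than in root library 2 in 283 of the 374 pairs, and a smaller part in 86. The 4 ways to choose and read used the same 4 libraries. Exchanging the choosing and the reading libraries keeps the same repeated pairs by construction. The crossed choices, with root library 1 and shoot library 2 together, also gave 174 repeated pairs, a number that construction does not fix. The share that moved again in the same direction was 43.0% to 46.5% and varied only with the number chosen. Since the libraries are the same, it is no further agreement. The pairs themselves still required a score of 10 TPM or more from the pooled libraries.

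The 10 strongest separated regions, ranked by the lower of the 2 tissue scores, exchanged the lead between starts that both tissues used. The strongest, on sequence 13 plus strand, 24237079 to 24237152, scored 1247 TPM in root and 747 TPM in shoot. The root main start at 24237143 had 547 and 393 tags in the root libraries and 195 and 113 in the shoot libraries. At the shoot main start at 24237127, which is 16 bp upstream, the root libraries had 435 and 292 tags and the shoot libraries 391 and 170. Of the tags at both bases, the shoot main start thus held 43.5% ± 1.2 in root (SD, n = 2) and 63.4% ± 4.7 in shoot. The libraries of the tissues did not overlap, here and in the other 9, as the choice of separated regions largely fixes. Nor did they overlap in 261 (81.1%) of all 322 regions with counts, separated or not. Shoot library 2 by itself led 3 bp further downstream than shoot library 1. The median position of all tags moved by only 1 bp upstream in this region.

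On sequence 2 minus strand, 15092666 to 15092811 the shoot main start lay 40 bp downstream of that of root. The shoot base held 35.8% and 36.3% of the tags at both bases in the root libraries and 56.7% in each shoot library. All 4 libraries had their main start exactly where the pooled value put it. On sequence 13 minus strand, 25009845 to 25009920 the root base, at 25009880, had 184 and 181 tags in root and 96 and 82 in shoot. The shoot base, 30 bp downstream at 25009850, had 121 and 103 tags in root and 199 and 158 in shoot. Here the shoot base took 38.0% ± 2.4 of the tags at both in root (SD, n = 2) and 66.6% ± 1.1 in shoot.

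The next 7 moved by 38 to 56 bp. On sequence 1 plus strand, 54024048 to 54024120 the shoot base, 42 bp downstream, held 43.3% ± 6.1 of the tags at both bases in root (SD, n = 2) and 68.5% ± 8.1 in shoot. Sequence 2 plus strand held 2 regions in which the shoot main start was upstream. At 47248578 to 47248663 it lay 55 bp upstream, with 42.9% ± 3.0 in root and 60.3% ± 1.1 in shoot. At 2075820 to 2075903 it lay 45 bp upstream, with 39.5% ± 2.4 and 57.3% ± 2.3.

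On sequence 8 minus strand, 23555367 to 23555621 the shoot base lay 52 bp downstream and held 31.7% ± 6.2 of the tags at both bases in root (SD, n = 2) and 56.7% ± 1.9 in shoot. On sequence 1 minus strand, 20192458 to 20192573 it lay 38 bp upstream, with 39.7% ± 8.5 and 72.4% ± 3.1. On sequence 8 plus strand, 2543169 to 2543247 it lay 56 bp upstream, with 41.3% ± 3.2 and 58.6% ± 2.0. The widest exchange of the 10 was on sequence 11 plus strand, 43867 to 44089. There the root base at 43958 had 53 and 88 tags in root against 16 and 18 in shoot, and the shoot base 48 bp upstream had 19 and 48 tags in root against 61 and 46 in shoot. The shoot base held 30.8% ± 6.3 of both in root and 75.5% ± 5.2 in shoot, and the median position of all tags moved 46 bp upstream.

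The displacement of the strongest regions depended on reading starts base by base. With tags summed over 5 bp windows, 6 of the 10 had windows under 10 bp apart. The displacement was then 0 in 4 of them, among them the strongest on sequence 13 plus strand, 4 bp upstream at sequence 2 plus, 47248578, and 2 bp downstream at sequence 2 plus, 2075820. It was 49 bp upstream at sequence 11 plus, 43867. Of the 4 strongest regions without counts per library, 2 had a displacement of 0 in windows. Of the 6 with the longest displacement none came under 10 bp, and the longest, on sequence 4 plus strand, was then 149 bp. With libraries thinned to equal totals, 1 of the 10 strongest came under 10 bp, at sequence 2 plus, 47248578, with 6 bp upstream.

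**Figure D3:**
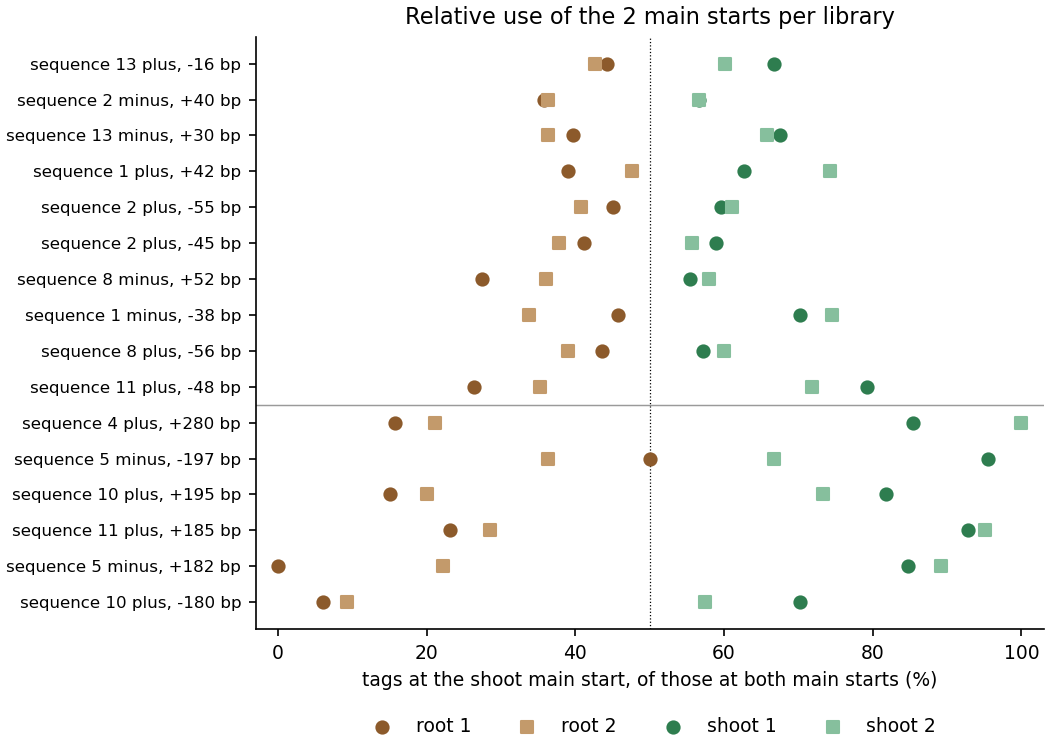
Tags at the shoot main start as a percentage of the tags at both main starts (horizontal axis) in each of the 4 libraries, for the 10 strongest separated regions (above the line) and the 6 with the longest displacement (below it), named by sequence, strand and displacement of the shoot main start. Brown marks are root libraries and green marks shoot libraries. For every region both green marks lie to the right of both brown marks, which the choice of regions largely fixes. That held in 125 of all 128 separated regions and in 261 of all 322 regions with counts. The gap is widest among the long displacements.

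The 6 separated regions with the longest displacement had lower scores, and in 5 of them the share at the shoot base differed more between tissues than in any of the 10 strongest. On sequence 4 plus strand, 48085114 to 48085425 the shoot main start lay 280 bp downstream of the root main start. The root base at 48085140 had 32 and 15 tags in root and 6 and 0 in shoot, and the shoot base at 48085420 had 6 and 4 tags in root and 35 and 23 in shoot. The shoot base thus took 18.4% ± 3.7 of the tags at both in root (SD, n = 2) and 92.7% ± 10.3 in shoot, and 28.6% of the start profile was common to both tissues.

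Downstream displacements were found at 3 more of the 6. On sequence 11 plus strand, 10206713 to 10206904 the displacement was 185 bp downstream, with 20 and 10 root tags and 10 and 4 shoot tags at the root base, and 6 and 4 root tags against 129 and 77 shoot tags at the shoot base. On sequence 10 plus strand, 132954 to 133187 it was 195 bp downstream, with 17.5% ± 3.5 of both at the shoot base in root (SD, n = 2) and 77.6% ± 6.0 in shoot. On sequence 5 minus strand, 2208169 to 2208482 it was 182 bp downstream, where root scored 11.2 TPM and shoot 129 TPM, and the root base had only 8 and 7 tags in root and 7 and 5 in shoot. Its shoot base had 0 and 2 tags in root and 39 and 41 in shoot.

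Displacements went upstream in the other two. On sequence 10 plus strand, 4458982 to 4459187 the shoot main start lay 180 bp upstream, and its base had 4 and 5 tags in root against 66 and 35 in shoot. The root base there kept 28 and 26 tags in shoot against 62 and 49 in root. On sequence 5 minus strand, 4213540 to 4213845 the displacement of 197 bp upstream rests on few tags. Root library 1 had 4 tags at each of both bases, a tie that the rule of the lowest coordinate settled, and root library 2 had 7 and 4. The shoot libraries had 1 and 2 tags at the root base and 21 and 4 at the shoot base.

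**Figure D4:**
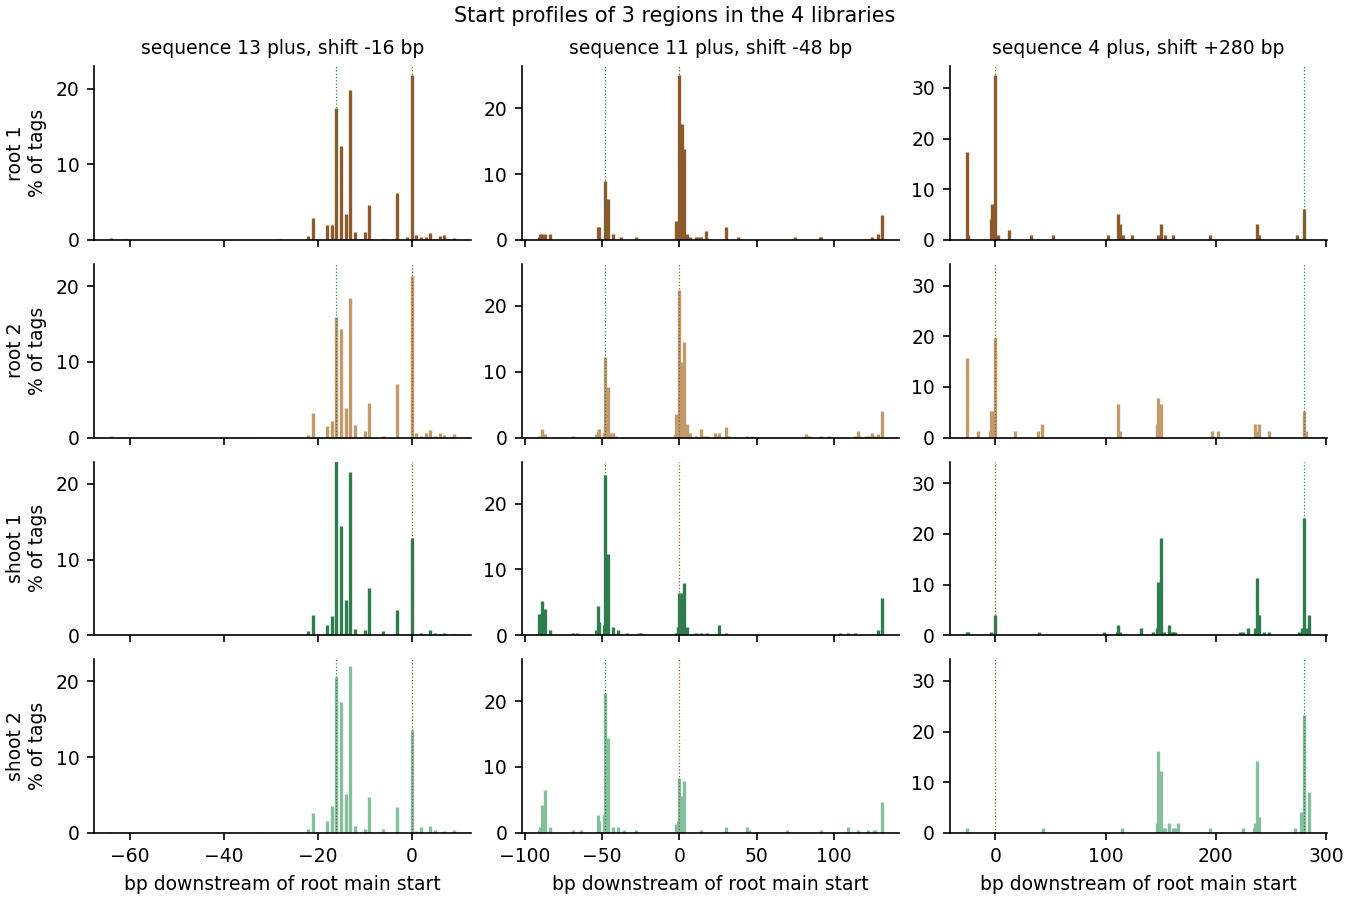
Share of the tags of a region (vertical axes, %) at each base, by distance downstream of the root main start in bp, in root libraries 1 and 2 and shoot libraries 1 and 2 from top to bottom, for the strongest separated region (sequence 13 plus), the tenth (sequence 11 plus) and the one with the longest displacement (sequence 4 plus). Dotted lines mark the root (brown) and shoot (green) main starts; in the first region the same bases are used in all 4 libraries with other weights, and in the third few shoot tags lie near the root main start.

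Where counts per library were lacking, the 4 strongest regions had pooled tags only, with no check between libraries. The rule itself requires that root and shoot lead at different bases in these values. On sequences 15 and 17, the main start was not above the other start beyond the counting interval in both tissues. On sequence 16 plus strand, 2520220 to 2520389 root had 375 tags at its main start and 291 at the shoot main start, 42 bp downstream, while shoot had 550 and 619. On sequence 15 minus strand, 15228606 to 15228825 the displacement was 20 bp upstream, with 420 and 301 tags in root and 187 and 214 in shoot. On sequence 17 plus strand, 39547915 to 39548138 it was 33 bp upstream, with 342 and 260 tags in root and 319 and 371 in shoot. The largest contrast of the 4 was on sequence 14 plus strand, 1451401 to 1451737, with a displacement of 109 bp upstream, where root had 255 and 160 tags and shoot 90 and 422.

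Among the regions that the libraries did not separate were some of the strongest. On sequence 5 plus strand, 38708250 to 38708526 the pooled root tags were 200 at the root main start and 199 at the shoot main start, 28 bp downstream. Root library 1 led at the shoot base, with 111 tags against 107, and shoot library 2 led at another base, 25 bp upstream of the root main start, so that the displacement was 25 bp upstream without shoot library 1. On sequence 1 minus strand, 58697251 to 58697406 shoot library 1 had 137 tags at the root base and 130 at the shoot base, and shoot library 2 had 57 and 83. On sequence 1 minus strand, 51397799 to 51397907 both shoot libraries led at the pooled shoot main start, and root library 2 led at the shoot base with 248 tags against 243.

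Just inside the limit of 10 bp, the strongest regions were on sequence 6 plus strand, 22680217 to 22680338 and on sequence 13 plus strand, 38314513 to 38314621, both with the shoot main start 10 bp downstream. In the first, the shoot base held 45.5% ± 1.9 of the tags at both bases in root (SD, n = 2) and 67.0% ± 3.5 in shoot. In the second, shoot library 2 led 37 bp downstream. Just outside, at 9 bp upstream, were 2 pairs on sequence 7 minus strand. At 44798226 to 44798331 the shoot base held 48.2% ± 2.5 of both in root and 58.3% ± 3.6 in shoot. At 44913723 to 44913752 shoot library 1 led at the root base, with 107 tags against 88. In all, 7 pairs were 10 bp apart and 9 pairs were 9 bp apart. With a distance limit of 5 bp 595 pairs met the rule, and with 20 bp 403, against 483.

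A nearly complete exchange of starts was rare. The 6 regions in which each tissue used the other start at under 20% of its own were picked after their values were seen. The most deeply sequenced of them, on sequence 6 plus strand, 13536375 to 13536513, had 105 and 82 tags in root and 17 and 13 in shoot at the root main start. At the shoot main start, 43 bp downstream, it had 7 and 6 tags in root and 152 and 98 in shoot. All 4 libraries had their main start at the pooled one, and 22.7% of the start profile was common to both tissues. On sequence 2 plus strand, 12944821 to 12945060, with a displacement of 165 bp downstream, the root base had 14 and 21 tags in root and 1 in each shoot library, and the shoot base 0 and 2 tags in root and 11 and 9 in shoot. Of the 6, 4 were separated in the libraries, 1 was not, and 1 had no counts per library.

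A change of the leading start, which the rule requires of every region, was also read in 2 regions where the level differed by far. Only 1 of them was separated in the libraries. The regions with the 2 highest shoot scores were likewise chosen after their values were seen. On sequence 3 plus strand, 1491276 to 1491371 shoot scored 3851 TPM and root 124 TPM. Root had 81 and 60 tags at its main start and 25 and 6 at the shoot main start, 38 bp downstream, while shoot had 399 and 292 at the root base and 1033 and 791 at its own. Each library led at the pooled main start of its tissue. On sequence 13 plus strand, 27263126 to 27263255 shoot scored 2678 TPM and root 20.4 TPM, and the displacement of 13 bp upstream was not separated, since root library 2 had 10 tags at each of both bases. The longest displacement of all, 515 bp downstream on sequence 20 minus strand, 50867787 to 50868364, had no counts per library, and its pooled tags were 35 and 9 in root and 21 and 26 in shoot.

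Regions with a displaced main start were broader than the other pairs, with a smaller share of the tags on the main start. Their union spans had a median width of 100 bp (quartiles 68 and 156.5 bp), against 58 bp (22 and 100 bp) in the other 3668 pairs. They held a median of 32 used bases against 18. The main start took a median of 23.7% of the tags in root and 23.9% in shoot, against 46.5% and 47.4% in the other pairs. The 321 of these other pairs with main starts 1 to 9 bp apart were closer to the regions, with 30.5% in root and 29.7% in shoot. A low share is thus not particular to displacements of 10 bp or more. Scores were a little lower, with medians of 34.7 TPM in root and 27.5 TPM in shoot against 43.6 and 33.2 TPM. These are descriptions, since width and concentration bear on which base leads.

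The share of pairs with a displaced main start went up with width and down with concentration. It was 1.61% at 11 to 25 bp, 7.96% at 26 to 50 bp, 14.1% at 51 to 100 bp, 17.7% from there to under 150 bp and 24.1% at 150 bp or more, the class that held 133 of the 483 regions. The 590 pairs of 10 bp or less were too narrow to meet the rule. Where the higher of the 2 main-start shares was under 20%, 43.7% of pairs met the rule, but where it was 60% or more only 9 of 1346 did (0.669%). Separated regions followed width in the same order, from 0.339% of pairs with counts at 11 to 25 bp to 10.5% at 150 bp or more. They followed concentration less closely, with 8.75% where the share was under 20% and 9.07% at 20 to 40%.

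**Figure D5:**
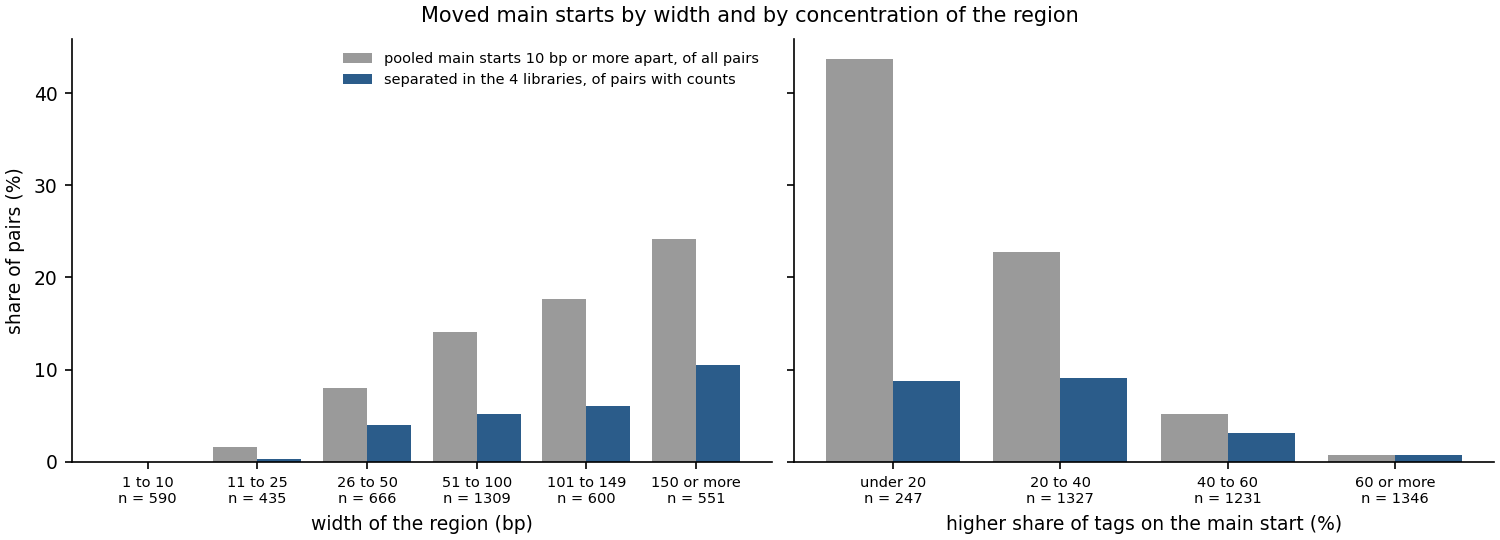
Share of pairs (vertical axes, %) with pooled main starts 10 bp or more apart (grey, of all pairs) and separated in the 4 libraries (blue, of pairs with counts), by width of the region in bp on the left and by the higher of the 2 shares of tags on the main start in % on the right, with the number of pairs under each class. Grey bars go up from 0 to 24.1% with width and down from 43.7% to 0.669% with concentration, and blue bars differ little between the 2 classes of lowest concentration.

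The median position of all tags counts those at both main starts, which the rule used, so it describes the regions and is no separate measure of the rest of the profile. It lay in the same direction as the main start in 361 of the 483 regions, in the opposite direction in 29, and was the same base in both tissues in 93. It moved by a median of 11 bp, against 41 bp for the main start, and by 10 bp or more in 250 regions (51.8%). Of the other 3668 pairs, 298 (8.12%) had a median position 10 bp or more apart while their main starts were not. The part of the profile common to both tissues, which likewise includes the main starts, had a median of 65.4%, against 83.0% in the other pairs.

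Profiles were also compared between libraries, with every library thinned to the tags of the lowest one in that region and at least 20 tags in each. In 269 regions the root libraries shared a median of 65.4% of their profile and the shoot libraries 66.7%, while root and shoot libraries shared 55.6%. All 4 root-shoot overlaps were below both within-tissue overlaps in 92 of these regions (34.2%), against 16.3% of all 2267 pairs, and nothing is read from this count because the rule used the same contrast. In the other 1998 pairs the medians were 79.2% and 80% within tissues and 76.3% between them.

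Whether the summed tags of a region also differed between tissues was taken from a fit over all regions with counts. All 322 regions passed the filter on low counts. With edgeR (quasi-likelihood F test, Benjamini-Hochberg adjusted p under 0.05), 41 (12.7%) were called higher in root and 70 (21.7%) higher in shoot, against 23.4% and 29.5% of all 7183 regions tested. Of the other 2469 pairs, 16.5% and 20.9% were called. The rule used the root-shoot contrast and required 10 TPM in both tissues, so nothing is read from these counts. The split rests on the scaling. With TMM factors 63.1% of the 111 called among the regions described here were higher in shoot, against 55.7% of the 3803 called over all tested regions. When scaled to total tags the shares were 37.6% of 125 and 43.4% of 4107. That scaling moved the median log2 difference (shoot over root) of all tested regions from 0.06 to -0.32. The median of the regions described here went from 0.17 to -0.21. Root calls were fewer without either shoot library, and so were those over all tested regions. Of the 10 strongest separated regions, 1 was called, on sequence 2 minus strand, 15092666, higher in shoot by 1.92 on the log2 scale (adjusted p = 0.002055 by the same test). The other 9 had adjusted p of 0.0972 or more by that test, which does not show equal levels. Of the 6 with the longest displacement 4 were called, all higher in shoot, with the largest difference, 3.79 on the log2 scale, on sequence 5 minus strand, 2208169 (adjusted p = 2.785e-06 by that test).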

How the data were processed

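NanoCAGE tags of 2 root and 2 shoot libraries were analysed from deposited tables. Which aligner and clustering software were used, and how multi-mapping reads were handled, is not given in the sources used, and soybean's many near-identical gene copies could have had tags split or joined. Per the file headers, deposited counts are raw tag numbers by base, strand and library. They covered sequences 1 to 12, the plus strand of sequence 13 and its minus strand up to 31697699, where 1 broken line was left out. The deposited TPM table and the authors' cluster lists give pooled TPM per tissue. On bases in both tables, TPM followed a power law of the counts summed over libraries (exponents 1.00 and 0.994, with 1 tag worth 0.286 TPM in root and 0.329 in shoot), so pooled tags were recovered as whole numbers. The rule for regions was applied to these values. Coordinates count from 1 in the deposited assembly, for which no sequence or genes were used here.

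The regions and lists were chosen with earlier results of these data known. Named regions were the 10 strongest and the 6 longest separated ones, the 4 strongest without counts, the 3 strongest not separated, and 2 each just inside and outside the limit. Levels were tested with edgeR 4.0.16 (TMM, filterByExpr, tissue as the only term) on clusters of both lists merged within 100 bp. The test was checked on simulated data, where it found most of the 4-fold changes and few of the 2-fold ones. The spread and the number of changes were set by hand there, so these shares do not carry over to the real libraries. DESeq2 1.42.0, other scalings, no filter, a replicate block, thinning to 655935 tags and leaving out each library were alternatives, as were other limits, windows of 5 bp and tie rules for the regions.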

Additional observations from a re-analysis of the deposited data

How the results depend on the processing

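The number of regions followed the score limit: 799 pairs met the rule with both scores of 5 TPM or more and 265 with 20 or more, against 483. With counting support required in both tissues 84 remained, at a median distance of 54.5 bp. Distance limits of 5 and 20 bp gave median distances of 33 and 48 bp, by construction. The median width of the regions was 1.72 times that of other pairs by deposited span and 3.05 times between the 10% and 90% quantiles of the tags. The count of regions stayed within 1.5 times with windows of 5 bp, the other tie rule and the own span of each cluster, and that of separated regions with windows of 5 bp (91) and thinning (115). Leaving out 1 library gave 347 to 367 regions in the covered part, against 322, and 169 to 180 separated ones, against 128, where a left-out library also removes conditions. Between 84.5% and 89.1% of the 322 were found again, and all 128 separated ones in each case, which their choice largely fixes.

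Among named regions, the direction reversed at sequence 2 plus 2075820 (2 bp downstream) and sequence 7 minus 44798226 (20 bp downstream) with 5 bp windows, and at sequence 5 plus 38708250 (-25 bp) without shoot replicate 1, against 0 to 28 bp without any 1 of the others. The causes were not tested.

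Level calls higher in root were 41 as reported, 78 scaled to total tags and 22 by DESeq2. Over all regions tested they were 1684 and 2325 of 7183, and 1144 of 10554 by DESeq2. Calls higher in shoot were 70 as reported and 42 by DESeq2, against 2119 of 7183 and 1695 of 10554 over all regions tested. Nothing is read from these counts. With 1 library left out they ran from 23 to 37 in root and from 50 to 68 in shoot, where the lone library of a tissue is assumed to vary like those of the other. Over all regions tested, of which there were more in these fits, root calls were also fewer without any 1 library. Shoot calls over all regions tested were fewer only where a shoot library was left out. Nothing is read from these counts either. Library numbers did not pair the samples by label (correlation of same-numbered deviations -0.05 across regions). With a replicate block 32 were called higher in root and 62 higher in shoot, against 1476 and 1991 of all 7183 regions tested. In 97 of the 322 regions the lowest library had under 25 tags.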

Other observations

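Short displacements, which the 10 bp limit leaves out, were mostly downstream in shoot. Of 321 pairs with pooled main starts 1 to 9 bp apart, the shoot main start lay downstream in 212 (66.0%), against 225 of 483 at 10 bp or more. At exactly 2 bp it was downstream in 50 of 77 pairs, at 3 bp in 46 of 65, at 4 bp in 32 of 45 and at 5 bp in 34 of 45. At 1 bp it was downstream in 11 of 22, at 6 bp in 15 of 28, at 7 bp in 13 of 21 and at 8 bp in 8 of 9. At 9 bp it was mostly upstream, with 3 of 9 downstream. Between single libraries, shoot was downstream in 56.0% to 59.2% of 245 to 287 pairs that lay 1 to 9 bp apart, for the 4 root-shoot combinations. Between libraries of the same tissue, library 2 was downstream of library 1 in 49.1% of 230 pairs in root and 49.2% of 258 in shoot. This pattern was noticed in the data, the pairs are no replicates, and no test was made. Among the 483 regions the most frequent distance was 21 bp, in 17 regions, of which the shoot main start was upstream in 12.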
